A study of Mus musculus with 5 samples.

Results

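The mRNAs described here encode the enzymes that write and erase the phosphate on eIF2α, the α subunit of translation initiation factor 2. They are the 4 eIF2α kinases Eif2ak1, Eif2ak2, Eif2ak3 and Eif2ak4, and the regulatory subunits Ppp1r15a and Ppp1r15b, which bring protein phosphatase 1 (PP1) to eIF2α. The 6 genes were chosen by name, with earlier results of these data known. All 6 were found among the 52022 genes with transcripts in the tables and among the 16450 genes with enough counts to be tested. Interscapular brown adipose tissue (BAT), the thermogenic fat depot, was taken from 3 ATF4 BKO and 2 WT mice, and its polyadenylated RNA was sequenced as 1 library per mouse. Both groups carried the floxed Atf4 alleles (ATF4 fl/fl) on a C57Bl/6J background and were labelled male. ATF4 BKO mice also carried a Cre recombinase transgene under the Ucp1 promoter, so Atf4 is removed in UCP1-expressing adipocytes and stays intact in the other cells of the tissue, whereas their WT littermates had no Cre. Mice were 10 to 12 weeks old, had spent 7 days at 30 °C, which is thermoneutral for mice, and were then kept at 4 °C for 3 days with food available.

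Cells phosphorylate eIF2α when they are stressed, each kinase answering to a different kind of damage or shortage. The phosphorylated factor blocks its own exchange factor, eIF2B, which slows most translation while it favours a few mRNAs with upstream open reading frames, among them Atf4 and Ppp1r15a. ATF4 is a transcription factor that then raises genes of amino acid supply and stress defence, and GADD34, the protein of Ppp1r15a, closes the loop by removing the phosphate. The comparison asks whether the mRNAs of the kinases and of the phosphatase subunits, which act upstream of ATF4 protein or feed back on it, differed in cold-exposed BAT when Atf4 was deleted in brown adipocytes. The measurements are of mRNA, so neither kinase activity nor the phosphorylation of eIF2α was measured.

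Of the 6 genes, Ppp1r15a had by far the largest difference, at a mean of 28.5 ± 17.3 CPM (counts per 1000000 counts of the scaled library; SD, n = 3) in ATF4 BKO and 71.1 ± 32.0 (SD, n = 2) in WT, and it did not pass the test across all genes. The 4 kinases and Ppp1r15b had fold changes between -0.33 and 0.04 on the log2 scale. None of the 6 was called by edgeR's quasi-likelihood test at a Benjamini-Hochberg adjusted p below 0.05, a threshold that 1 of 16450 genes passed (0.00608%). None was called by DESeq2 either, which called 121 genes (0.736%). At an unadjusted p below 0.05 in edgeR, 1 of the 6 passed, Ppp1r15a, beside 5.23% of all genes. The fold change was below 0 for 4 of the 6, as for 48.8% of all genes, and the median of the 6 was -0.21 on the log2 scale, against 0.0077 over all genes tested.

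Library totals were 24698337 to 32452751 estimated counts. Atf4, the deleted gene, stood at 32.6, 52.6 and 23.5 CPM in ATF4 BKO replicates 1, 2 and 3 and at 286 and 226 CPM in WT replicates 1 and 2, a log2 fold change of -2.82 ± 0.34 (SE), with an adjusted p of 0.671 in edgeR and 9.72e-12 in DESeq2. The libraries expressed the tissue's defining marker, Ucp1, at 9762 to 13076 CPM, and the 14 brown adipocyte markers summed to 21190 to 26940 CPM in ATF4 BKO and 20390 to 22740 in WT. Of 22 skeletal muscle markers, 21 had a fold change below 0. In 19 every ATF4 BKO library lay below both WT libraries, where 10.6% of all genes did. DESeq2 called 10 lower, where it called 0.608% of all genes lower, and edgeR called none. At an unadjusted p below 0.05 in edgeR 19 were lower, where 3.42% of all genes were. The sums of the 22 muscle markers were 137 to 382 CPM in ATF4 BKO and 173 to 2856 CPM in WT, the highest in WT replicate 2. Without Mb, which encodes myoglobin and was the only marker with a fold change above 0, the sums were 49.6 to 68.2 CPM and 162 to 2720 CPM, a choice made after the values were seen. Myh7, Tnnt3, Pvalb and Myoz1 were at 0 in at least 1 library. The 14 immune markers summed to 535 to 1445 CPM in ATF4 BKO and 209 to 1196 in WT, and the 8 endothelial markers to 1093 to 1387 and 859 to 1018. All of both lists had a fold change above 0, as had 8425 of all 16450 genes. Every ATF4 BKO library lay above both WT libraries in 1 of the 14 and 3 of the 8, where 8.95% of all genes did. None was called by edgeR or DESeq2. At an unadjusted p below 0.05 in edgeR, 0 of the 14 and 2 of the 8 were higher, as were 298 of all genes. The library of ATF4 BKO replicate 1 went against its label of male, with 4598 counts of Xist, the X-inactivation RNA, where no other library had more than 7, and with 2 counts of the Y-linked Eif2s3y where the others had at least 1091, so the values without it are given below. In bulk tissue, fewer cells of a type and less RNA per cell cannot be told apart.

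**Figure D1:**
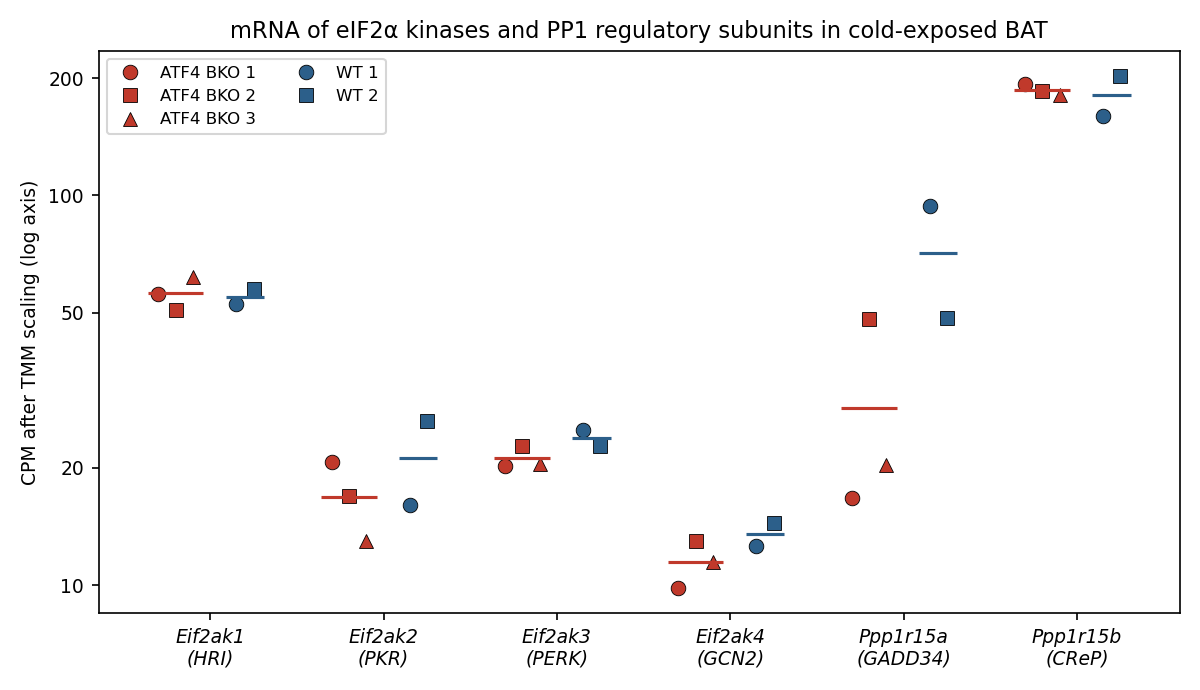
CPM after TMM scaling (log axis) of the 4 eIF2α kinase genes and the PP1 regulatory subunit genes Ppp1r15a and Ppp1r15b in each library, with ATF4 BKO in red and WT in blue, symbols marking the replicate and bars the group means. For Ppp1r15a the libraries spread from 16.7 to 93.7 CPM, with ATF4 BKO replicate 2 level with WT replicate 2. The other 5 genes have group means that lie close together.

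Eif2ak1 (ENSMUSG00000029613.15, chr5:143817788-143904251, plus strand, GRCm38) encodes HRI, which is restrained by heme and also receives signals from stressed mitochondria. Its mRNA was measured at 55.7, 50.8 and 61.6 CPM in ATF4 BKO replicates 1 to 3 and at 52.6 and 57.4 CPM in the WT libraries. The groups overlapped, and the WT values lay inside the ATF4 BKO range. The log2 fold change was 0.03 (95% interval -0.30 to 0.35; edgeR adjusted p = 0.985). Without ATF4 BKO replicate 1 it was 0.03 as well.

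Eif2ak1 was also the most abundant kinase mRNA per length. In TPM, each transcript's share of the library after division by its length, so that genes can be compared, it had a median level of 15.5 (range 14.0 to 17.7). The ranges of the other kinases all lay below this, at medians of 7.93 TPM for Eif2ak3, 5.24 TPM for Eif2ak2 and 3.27 TPM for Eif2ak4. Eif2ak1 made up 46.3% to 52.9% of the summed kinase TPM in the 5 libraries. The order of the remaining kinases was less firm. Eif2ak3 exceeded Eif2ak2 in 3 libraries and fell below it in ATF4 BKO replicate 1 and WT replicate 2, while Eif2ak2 exceeded Eif2ak4 in all 5 libraries although their ranges over the libraries overlapped.

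Eif2ak2 (ENSMUSG00000024079.4, chr17:78852564-78882573, minus strand) encodes PKR, the kinase that binds double-stranded RNA and is itself induced by interferon. A stretch of its first transcribed bases is shown because it holds a match to the letters of the interferon-stimulated response element (ISRE: GAAA, then 2 bases of any kind, then GAAA, searched on both strands), here in capitals. It lies at chr17:78882535-78882562 on the minus strand (RefSeq, GRCm38.p6), and the match begins 19 bases after the start site.
Eif2ak2: tccgccggGAAAACGAAAcagaagagaa
These letters occurred in 3.44% of all 32851 RefSeq windows that run from 250 bases before to 50 bases after a start site, and a match is not by itself a binding site.

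Eif2ak2 mRNA stood at 20.7, 16.9 and 13.0 CPM in ATF4 BKO replicates 1 to 3 and at 16.1 and 26.4 CPM in WT. WT replicate 2 was the highest library, and WT replicate 1 was below ATF4 BKO replicates 1 and 2, so the groups overlapped. The log2 fold change was -0.33 ± 0.28 (SE; 95% interval -1.03 to 0.36; edgeR adjusted p = 0.936). Without WT replicate 2 it was 0.05, and without ATF4 BKO replicate 1 it was -0.51. The deposited tables carry a prefix of 1 (ATF4 BKO replicates 1 and 2, WT replicate 1) or 2 (ATF4 BKO replicate 3, WT replicate 2), whose meaning is not given, and ATF4 BKO minus WT was 0.22 on the log2 CPM scale within prefix 1 and -1.02 within prefix 2. The difference between the WT libraries, 0.71 on that scale, was larger than the fold change between genotypes.

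The mean of the interferon-stimulated genes ordered the libraries in the same way. Over the 22 interferon-stimulated genes examined, the mean log2 CPM was 4.28, 4.23 and 3.13 in ATF4 BKO replicates 1 to 3 and 3.51 and 4.75 in WT replicates 1 and 2. As for Eif2ak2, WT replicate 2 was highest, followed by ATF4 BKO replicates 1 and 2, WT replicate 1 and ATF4 BKO replicate 3. The means of ATF4 BKO replicates 1 and 2 lay close together, and single genes did not all keep the order. These are 5 libraries and the order is a description. Of the 22 genes, 21 were highest in WT replicate 2, where 12.7% of all genes tested were, and 14 were lowest in ATF4 BKO replicate 3, where 20.1% of all genes were. Another 7 were lowest in WT replicate 1. The gene nearest to Eif2ak2 in its profile over the 5 libraries, out of 12205 compared, was Ddx58, which encodes the viral RNA sensor RIG-I, at 26.3, 24.67 and 18.1 CPM in ATF4 BKO and 20.4 and 37.0 CPM in WT. The root mean square difference of their mean-centred log2 CPM was 0.079, followed by Gm44597 at 0.087 and Tln2, a talin gene, at 0.089.

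None of the 22 genes was called between genotypes by edgeR or by DESeq2, while at an unadjusted p below 0.05 edgeR had none and DESeq2 had 1, Rsad2. In 17 of them the fold change was below 0, with a median of -0.31, and in none did the groups separate. Isg15, a ubiquitin-like modifier, had the largest difference at -0.73, from 11.8, 7.47 and 2.59 CPM in ATF4 BKO and 7.78 and 16.3 CPM in WT. It was followed by Zbp1, a sensor of Z-form nucleic acid, at -0.68, and Rsad2, which encodes the antiviral enzyme viperin, at -0.67. Without WT replicate 2 the median of the 22 was 0.47. For the immune markers the mean log2 CPM was 3.805, 4.13 and 3.30 in ATF4 BKO replicates 1 to 3 and 2.37 and 3.99 in WT replicates 1 and 2. Their exact order differed, with ATF4 BKO replicate 2 highest and WT replicate 1 lowest. As for the interferon-stimulated genes, WT replicate 2 and ATF4 BKO replicates 1 and 2 lay above the other libraries. A link between the lists was not tested. WT replicate 2 was also the library with the highest muscle marker level, and with that level as a covariate the fold change of Eif2ak2 was 0.41 (edgeR adjusted p = 0.758). The mean log2 CPM of the muscle markers was lower in every ATF4 BKO library than in both WT libraries. With 5 libraries this covariate and genotype cannot be well told apart.

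**Figure D2:**
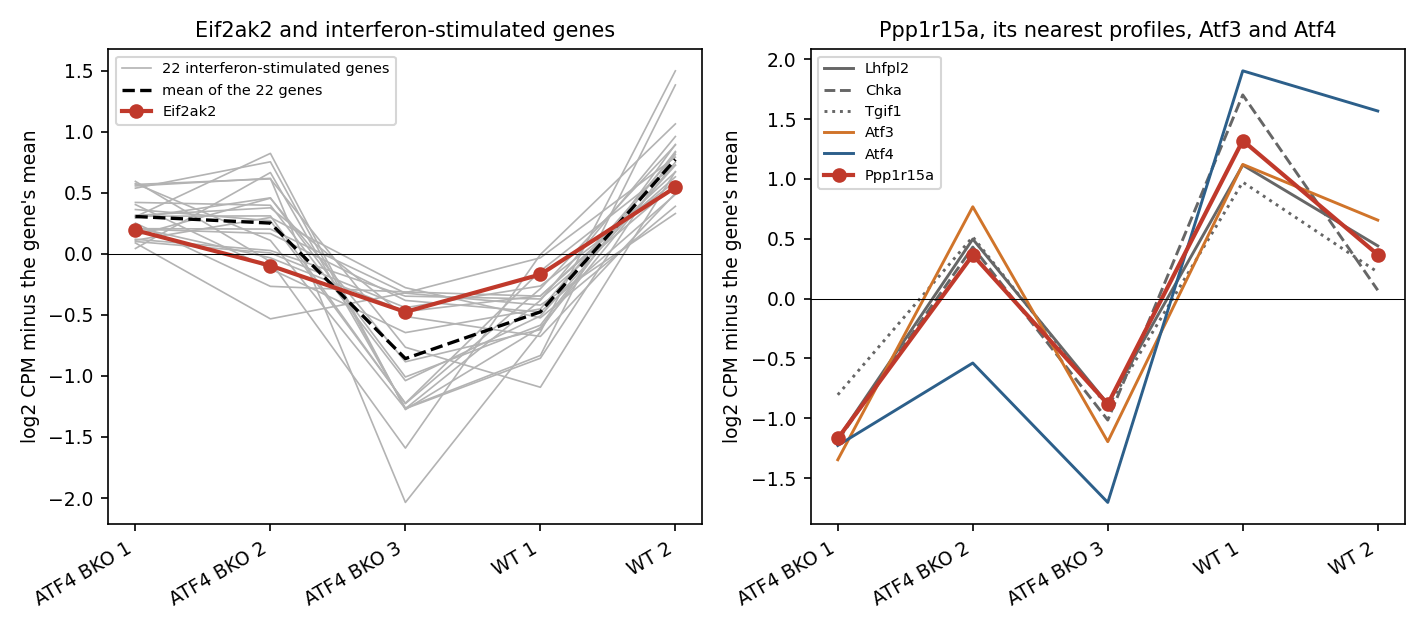
Log2 CPM minus the gene's own mean over the 5 libraries, plotted by library. On the left, Eif2ak2 (red) is drawn over the 22 interferon-stimulated genes (grey) and their mean (dashed), of which 21 peak in WT replicate 2 and 14 are lowest in ATF4 BKO replicate 3. On the right, Ppp1r15a (red) is drawn with the 3 genes of nearest profile, with Atf3 and with Atf4, where ATF4 BKO replicate 2 rises above the other ATF4 BKO libraries for each gene. The 3 nearest genes were picked for their likeness to Ppp1r15a.

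Eif2ak3 (ENSMUSG00000031668.14, chr6:70844515-70905245, plus strand) encodes PERK, the kinase of the endoplasmic reticulum that is set off by unfolded protein. It was measured at 20.2, 22.7 and 20.5 CPM in ATF4 BKO and at 24.9 and 22.7 CPM in WT. Every ATF4 BKO library was below both WT libraries, but only by the margin between 22.708 CPM in ATF4 BKO replicate 2 and 22.716 CPM in WT replicate 2, whose 95% counting intervals of 21.0 to 24.5 and 21.1 to 24.4 CPM coincide. Ppp1r15a was the other gene of the 6 with its groups apart in this way, 2 of 6 in all, where 10.6% of all genes had ATF4 BKO wholly below WT, and 0 of 6 had it wholly above, where 8.95% of all genes did. The log2 fold change of Eif2ak3 was -0.17 ± 0.14 (SE; 95% interval -0.50 to 0.16; edgeR adjusted p = 0.931), and -0.14 without ATF4 BKO replicate 1. On the TPM scale the groups overlapped, at 5.06, 8.37 and 7.92 against 7.93 and 7.09. The short Eif2ak3-203, a retained-intron transcript of 347 bases, took up to 36.01% of the gene's TPM there with at most 1.92% of its counts, and with the full-length coding transcript alone the levels were 4.80, 6.07 and 4.95 TPM in ATF4 BKO and 6.86 and 6.59 TPM in WT.

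Eif2ak4 (ENSMUSG00000005102.13, chr2:118388618-118475234, plus strand) encodes GCN2, which senses uncharged tRNA and so a shortage of amino acids. Its level in TPM was the lowest of the 6 in all 5 libraries. It was measured at 9.85, 13.0 and 11.4 CPM in ATF4 BKO and 12.6 and 14.4 CPM in WT. ATF4 BKO replicate 2 lay just above WT replicate 1, so the groups overlapped on this scale, whereas on the TPM scale they did not, at 2.14, 3.27 and 2.74 against 3.49 and 4.27. On TPM, 24.9% of all genes had ATF4 BKO wholly below WT. The log2 fold change from the counts was -0.24 ± 0.19 (SE; 95% interval -0.70 to 0.21; edgeR adjusted p = 0.931), and -0.15 without ATF4 BKO replicate 1. The genes nearest to it in profile were Ehbp1 at a root mean square difference of 0.017, Arhgap12 at 0.033 and Dmxl1 at 0.033.

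The coding transcripts of Eif2ak4 were split differently in ATF4 BKO replicate 1. Eif2ak4-201 (5212 bases) took 77.2% of the gene's TPM there and 17.2% to 34.5% in the other 4 libraries. Eif2ak4-202 and Eif2ak4-205, which differ from each other by 1 base in length, took 10.04% and 7.71% in that library and up to 42.0% and 32.0% elsewhere. These shares are kallisto's division of reads among largely identical transcripts of a low gene with 223 counts in that library, so they are uncertain, whereas the gene's summed counts do not depend on the division.

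The 4 kinase genes summed to 26.8, 31.4 and 30.3 TPM in ATF4 BKO and 31.7 and 38.1 TPM in WT, with ATF4 BKO replicate 2 just under WT replicate 1. On the TPM scale 24.9% of all genes were separated in this direction, and in CPM the sums overlapped, at 106.5, 103.4 and 106.6 in ATF4 BKO and 106.3 and 120.9 in WT. Eif2ak1, Eif2ak2 and Eif2ak3 share 10.3%, 8.16% and 6.78% of their 31-base words with other annotated transcripts, for Eif2ak1 mainly with Aimp2 and Ankrd61 on the opposite strand. Whether strand was used in the quantification is not given in the sources used here, so reads from such overlaps cannot be told apart.

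Ppp1r15a (ENSMUSG00000040435.12, chr7:45522916-45526268, minus strand) encodes GADD34, the stress-inducible subunit, and is known as a target of the ATF4 branch. The 250 bases before its start site are shown because it is the member that differed most. Capitals mark a match to the cyclic AMP response element (CRE, TGACGTCA), which reads the same on both strands and begins 12 bases before the start, and a match to the ISRE letters that begins 220 bases before it. The window is chr7:45526269-45526518 on the minus strand (RefSeq, GRCm38.p6).
Ppp1r15a: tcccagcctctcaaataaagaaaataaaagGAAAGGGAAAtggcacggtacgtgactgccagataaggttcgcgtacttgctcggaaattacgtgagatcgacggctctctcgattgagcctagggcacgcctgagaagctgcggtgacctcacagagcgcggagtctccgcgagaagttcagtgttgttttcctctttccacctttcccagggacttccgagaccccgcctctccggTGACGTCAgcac
Among all 32851 windows of the same length, the CRE letters occurred in 1.55% and the ISRE letters in 2.98%. The windows of Eif2ak1, Eif2ak3 and Eif2ak4 held neither, and no member's window held the C/EBP-ATF response element (CARE, TGATGNAAN, in 3.44% of windows) or the endoplasmic reticulum stress element (ERSE: CCAAT, then 9 bases of any kind, then CCACG, in 0.113%). For Ppp1r15b there was no window to search.

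Ppp1r15a mRNA was measured at 16.7, 48.3 and 20.4 CPM in ATF4 BKO replicates 1 to 3, from 378, 1357 and 605 counts, and at 93.7 and 48.4 CPM in WT replicates 1 and 2, from 2962 and 1641 counts. ATF4 BKO replicates 1 and 3 were low, WT replicate 1 was high, and ATF4 BKO replicate 2 and WT replicate 2 lay together between them. Both groups were therefore wide, and the groups stayed apart only by 48.30 against 48.41 CPM, with counting intervals of 45.8 to 50.9 and 46.1 to 50.8 CPM. The ATF4 BKO mean was 40.0% of the WT mean.

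The log2 fold change of Ppp1r15a was -1.32 ± 0.51 (SE; 95% interval -2.56 to -0.08), with an adjusted p of 0.911 in edgeR. DESeq2 gave -1.33 with an adjusted p of 0.386. By an exact permutation test over the 5 libraries, the two-sided p was 0.2 and the one-sided p 0.1, the smallest that 3 against 2 libraries can give. Any gene with ATF4 BKO wholly below WT gets these values, as Eif2ak3 did, so the test only restates that the groups were apart. All 15 alternatives kept the sign, with values from -1.93 without ATF4 BKO replicate 2 to -0.76 without WT replicate 1 and adjusted p values from 0.322 to 1.00. Leaving out a library could not turn the sign, because every ATF4 BKO library lay below both WT libraries. Without ATF4 BKO replicate 1, whose library went against its label of male, the value was -1.05. The log2 CPM difference was -1.72 within prefix 1 and -1.25 within prefix 2.

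Ppp1r15a was also the member that varied most within a genotype. ATF4 BKO replicate 2 was 2.61 times the mean of the other ATF4 BKO libraries, and WT replicate 1 was 1.94 times WT replicate 2. The nearest profile over the 5 libraries was that of Lhfpl2, at 15.2, 48.2 and 18.6 CPM in ATF4 BKO and 74.0 and 46.3 CPM in WT, a root mean square difference of 0.114 on mean-centred log2 CPM. Next were Chka, which encodes choline kinase alpha, at 0.226 and Tgif1, a homeobox transcriptional repressor, at 0.246. The 3 were picked for likeness to Ppp1r15a over these same libraries. That each was high in ATF4 BKO replicate 2 among the ATF4 BKO libraries and highest of all in WT replicate 1 follows from that choice.

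Ppp1r15b (ENSMUSG00000046062.5, chr1:133131143-133139783, plus strand) encodes CReP, the constitutive partner of GADD34. Its level in TPM was the highest of the 6 in 4 of the 5 libraries. It was measured in CPM at 193, 185 and 181 in ATF4 BKO and 160 and 202 in WT. The WT libraries lay on either side of the ATF4 BKO libraries. The log2 fold change was 0.04 ± 0.15 (SE; 95% interval -0.32 to 0.40; edgeR adjusted p = 0.980), and 0.01 without ATF4 BKO replicate 1. With protein-coding transcripts alone it was -0.06.

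The level of Ppp1r15b depends on a non-coding transcript. Ppp1r15b-201 (5594 bases, coding) carried 46.0% to 57.6% of the gene's TPM, and Ppp1r15b-202 (3688 bases), annotated as a processed transcript, carried the other 42.4% to 54.0% in the same libraries. Of the gene's 31-base words, 11.2% are shared with other annotated transcripts, mainly those of Gm26616. Summed over both transcripts, Ppp1r15b was at a median of 45.3 TPM (43.6 to 56.1). In coding transcripts of at least 1000 bases, a setting chosen after the data were seen, it was at 22.1, 23.1 and 21.7 TPM in ATF4 BKO and 22.05 and 32.3 TPM in WT.

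The balance between the phosphatase subunits shifted from library to library through Ppp1r15a. Ppp1r15a made up 19.0%, 42.5% and 20.7% of the summed TPM of the pair in ATF4 BKO and 60.5% and 41.0% in WT. WT replicate 1 was the only library with more Ppp1r15a than Ppp1r15b, at 66.9 against 43.6 TPM. ATF4 BKO replicates 1 and 3 had 10.6 and 11.4 TPM of Ppp1r15a beside 45.3 and 43.7 TPM of Ppp1r15b, and there Ppp1r15a also stood below Eif2ak1. With coding transcripts of at least 1000 bases, Ppp1r15a was at 7.82, 25.6 and 10.03 TPM in ATF4 BKO and 51.8 and 27.8 TPM in WT, so the order of the pair turned in ATF4 BKO replicate 2. Ppp1r15a-203, a coding transcript of 389 bases that this setting leaves out, had 12.0% to 30.8% of the gene's TPM and 1.196% to 3.79% of its counts.

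**Figure D3:**
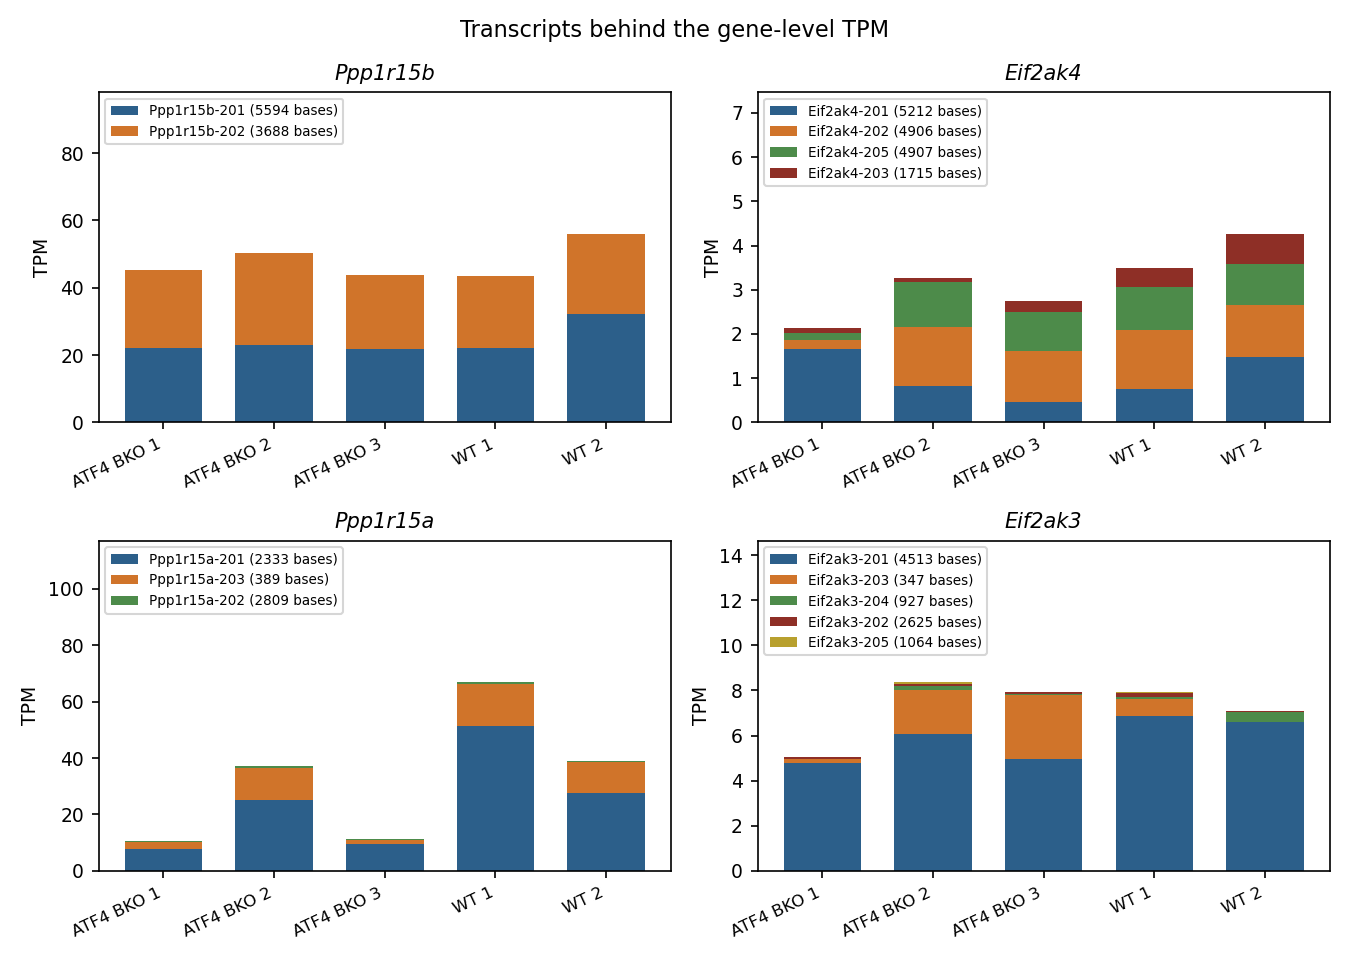
TPM of each annotated transcript with a value above 0, stacked by library, for Ppp1r15b, Ppp1r15a, Eif2ak4 and Eif2ak3, with transcript lengths in the legends. The non-coding Ppp1r15b-202 makes up 42.4% to 54.0% of its gene, Eif2ak4-201 dominates only in ATF4 BKO replicate 1 (77.2%), and Eif2ak3-203 reaches 36.01% in ATF4 BKO replicate 3.

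The catalytic subunits of PP1, which need GADD34 or CReP to act on eIF2α, are encoded by Ppp1ca, Ppp1cb and Ppp1cc, and had log2 fold changes of 0.05, -0.26 and -0.05. None of the 3 was called by edgeR or DESeq2, and none had an unadjusted p below 0.05 in either. Ppp1cb alone had its groups apart, at 263, 240 and 273 CPM in ATF4 BKO and 313 and 306 CPM in WT. Of all genes, 10.6% had ATF4 BKO wholly below WT.

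Of the 8 genes of eIF2, the substrate, and eIF2B, its exchange factor, 6 had a fold change below 0, with a median of -0.20, and none was called by edgeR or DESeq2. The median rested on the WT libraries, at -0.025 without WT replicate 1 and -0.35 without WT replicate 2. Eif2s2, which encodes the β subunit of eIF2, was the only one with an unadjusted p below 0.05 and with its groups apart. It stood at 66.9, 76.1 and 66.4 CPM in ATF4 BKO and at 136 and 93.2 CPM in WT, a log2 fold change of -0.71 ± 0.19 (SE; edgeR adjusted p = 0.771; DESeq2 adjusted p = 0.134). Over all genes, 3.42% were lower at an unadjusted p below 0.05 in edgeR and 10.6% had ATF4 BKO wholly below WT. Eif2s1, which encodes eIF2α itself, had a value of -0.42 (edgeR adjusted p = 0.911), and Eif2b2, the β subunit of eIF2B, had -0.28. Eif2s3x, named after its values were seen, encodes the γ subunit from the X chromosome and was at 213 CPM in ATF4 BKO replicate 1 and at 105 to 129 CPM in the others. That is the library with Xist, and 35.6% of the 31-base words of Eif2s3x are shared with other transcripts.

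Proteins that restrain or switch on the kinases include GCN1 and IMPACT for GCN2, PACT, TRBP and ADAR for PKR, P58IPK and BiP for PERK, and OMA1 and DELE1 for HRI. Of these 9 genes, 6 had a fold change below 0, with a median of -0.06. In none did the groups separate, none was called by edgeR or DESeq2, and none had an unadjusted p below 0.05 in either. The largest differences were 0.35 for Impact, -0.31 for Tarbp2, which encodes TRBP, and -0.17 for Hspa5, which encodes BiP.

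Of 16 genes on the list of Atf4, its partners and its targets, 14 had a fold change below 0, with a median of -0.94, and in 10 every ATF4 BKO library lay below both WT libraries (10.6% of all genes). None was called by edgeR, 8 had an unadjusted p below 0.05 there, where 3.42% of all genes were lower at that threshold, and DESeq2 called 6, all lower, where it called 0.608% of all genes lower. The 6 were Atf4 itself, the transcription factor Atf5 at -1.73 (DESeq2 adjusted p = 1.71e-07), Trib3, a pseudokinase that restrains ATF4, at -2.27 (1.42e-05), Chac1, which degrades glutathione, at -2.44 (2.26e-05), Asns, the asparagine synthetase, at -1.44 (6.8e-04) and Fgf21, a secreted hormone, at -3.57 (7.26e-06). The list was drawn up with earlier results of these data known.

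The libraries of Ppp1r15a lay closer together between genotypes than those of the 6 genes called, which were selected by their difference. Other genes of the list had overlapping groups, among them Atf3, Ddit3 and Gdf15, described below. Trib3 was at 7.11, 15.9 and 7.27 CPM in ATF4 BKO and 53.6 and 44.0 CPM in WT, so that the highest ATF4 BKO library stayed far below both WT libraries. For Ppp1r15a the highest ATF4 BKO library reached the lower WT library. The same ATF4 BKO library, replicate 2, was the highest of the 3 in 13 of the 16 genes, where 43.5% of all genes had it highest.

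A few stress genes of the list, named after their values were seen, were also high in that library. Atf3, a stress-induced repressor of the ATF family, was at 10.6, 46.1 and 11.8 CPM in ATF4 BKO and 58.9 and 42.6 CPM in WT, a log2 fold change of -1.15 ± 0.65 (SE; edgeR adjusted p = 0.916). Ddit3, which encodes CHOP, a factor that acts on Ppp1r15a, was at 13.6, 49.9 and 16.0 CPM in ATF4 BKO and 28.5 and 39.3 CPM in WT, with a value of -0.36. Gdf15, a secreted stress cytokine, was at 1.46, 32.4 and 1.95 CPM in ATF4 BKO and 57.4 and 20.9 CPM in WT, with a value of -1.71. In ATF4 BKO replicate 2 these genes were at 4.10, 3.38 and 19.0 times the mean of the other ATF4 BKO libraries. Asns, by contrast, was at 0.914 times that mean in the same library, and Atf4 was at 1.88 times.

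**Figure D4:**
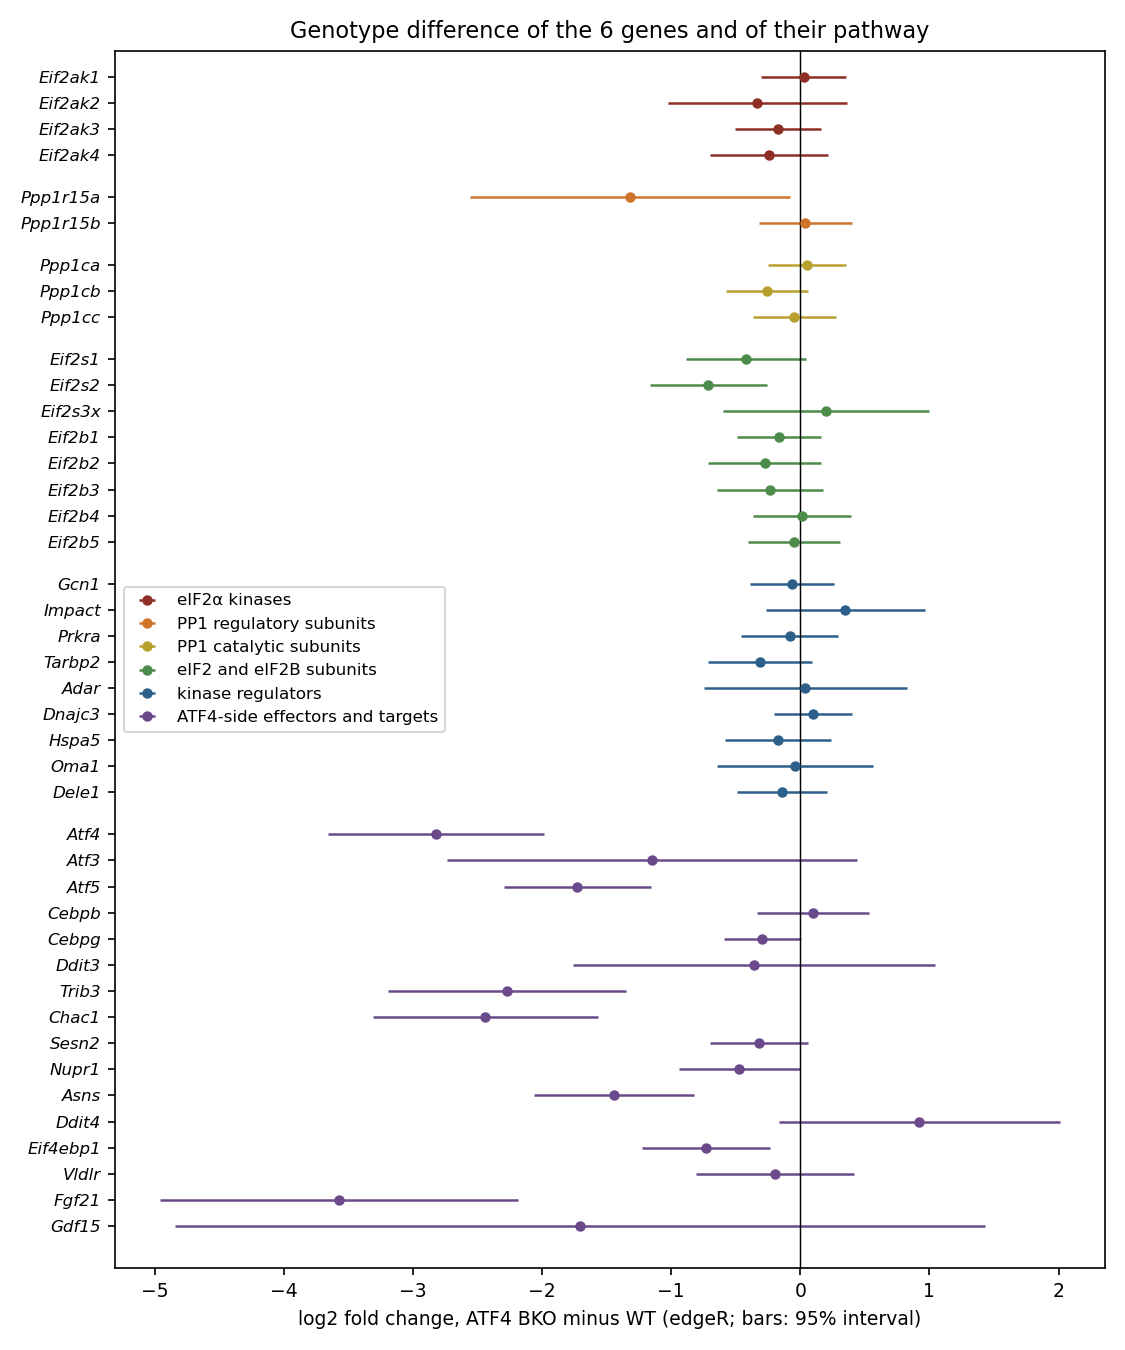
Log2 fold change of ATF4 BKO minus WT from edgeR for the 6 genes and for the genes of their pathway, with 95% intervals as bars and colours marking the groups of genes. Ppp1r15a at -1.32 stands apart from the other 5 genes, which lie between -0.33 and 0.04, and its interval ends just below 0.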

How the data were processed

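RNA from BAT was made into libraries with a stranded mRNA kit and sequenced by the authors, who quantified transcripts with kallisto 0.45.0. The deposited tables give, per mouse, estimated counts and TPM for 141450 transcripts. Which annotation was used for the transcripts is not given in the sources used here, and a second workflow of the authors, based on genome alignment, is not analysed here. Of the transcripts, 138191 matched GENCODE M21 (GRCm38) and were summed to 52022 genes. The other 3259 held 1.16% to 1.29% of counts and were left out. Gene sums of estimated counts were rounded to whole numbers.

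A gene was tested if 2 or more libraries had at least 10 counts (16450 genes), with edgeR 4.0.16 in R 4.3.3 (TMM, quasi-likelihood test, genotype alone, Benjamini-Hochberg adjustment over all genes tested, threshold 0.05). The 5 libraries leave 3 residual degrees of freedom, and the common dispersion was 0.0758. Alternatives were DESeq2 1.42.0, other scalings, no filter, limma 3.58.1 on log2(TPM + 1) and log2(TPM + 0.1), protein-coding transcripts only, leaving out each library, blocks by replicate number or by the prefix of the deposited tables, and a covariate for muscle markers (their mean log2 CPM). Group overlap under other scalings and levels from coding transcripts of at least 1000 bases were added after the data were seen. The edgeR and DESeq2 code was tested on simulated data. Counting intervals are exact Poisson 95% intervals and cover counting error only. The libraries are from separate mice as labelled. The edgeR p-values set the genotype difference against the spread between mice of a genotype. That spread was estimated for each gene partly from the other genes (median prior degrees of freedom 3.06).

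Members and gene lists were chosen with earlier results of these data known. The text names the 6 genes, Atf4, genes of the pathway lists that edgeR or DESeq2 called or, in a list without a call, at most 3 with the largest absolute fold change, and, for members whose log2 CPM ranged over at least 0.5, the 3 genes with the nearest profile among those with a mean log2 CPM of at least 1. Genes named outside this rule are said to be. Promoter windows (250 bases before to 50 after a start site) are from RefSeq, which matched 5 of the 6 genes, with 1 not matched. Motifs were searched as plain letters.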

Additional observations from a re-analysis of the deposited data

How the results depend on the processing

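The count of genes called was 1 in edgeR, 121 in DESeq2, 8 with no filter, 0 and 2 with limma on log2(TPM + 1) and log2(TPM + 0.1), and 190 with a muscle covariate. It was 0 with the replicate number as a block and 0 with the table prefix as a block. The muscle level was itself lower in every ATF4 BKO library than in both WT libraries, so fits with this covariate cannot separate it well from genotype. Leaving out each library gave 0 to 23 calls, with 0 without each ATF4 BKO library and 23 without WT replicate 1. None of the 6 genes was called under any alternative. With 3 against 2 libraries, the intervals in the report limit what could be detected.

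Ppp1r15a and Eif2ak3 kept their direction in all 15 alternatives. In CPM both had every ATF4 BKO library below both WT libraries, so leaving out a library could not be counted on to turn them. With log2(TPM + 1) and log2(TPM + 0.1) Eif2ak3 was at -0.093 and -0.11, where the median of all genes was lower, at -0.12 and -0.17. Leaving out each library gave log2 fold changes of -1.93 to -0.76 for Ppp1r15a, -0.25 to -0.091 for Eif2ak3, -0.33 to -0.15 for Eif2ak4, -0.63 to 0.053 for Eif2ak2, -0.045 to 0.11 for Eif2ak1 and -0.11 to 0.20 for Ppp1r15b. Library totals alone, log2(TPM + 1) and log2(TPM + 0.1) turned Eif2ak1 to -0.084, -0.15 and -0.16 and Ppp1r15b to -0.070, -0.093 and -0.095, while the median of all genes shifted to -0.099, -0.12 and -0.17. Coding transcripts alone turned Ppp1r15b to -0.059. With the muscle covariate Eif2ak2 was at 0.41 and Eif2ak4 at 0.044. Among the lists, the median of the eIF2 and eIF2B subunits ran from -0.35 to -0.025 over the libraries left out. The median of the PP1 catalytic subunits turned to 0.0069 without ATF4 BKO replicate 1, and that of the kinase regulators to 0.022 without WT replicate 2 (range -0.096 to 0.022 over the libraries left out) and 0.012 with the muscle covariate. The median of the interferon-stimulated genes was 0.088 with the replicate block, 1.09 with the muscle covariate, and -0.71 to 0.47 when each library was left out. The causes were not tested.

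The replicate numbers 1 and 2 recur in both groups. Same-numbered libraries correlated at 0.047 and 0.20 in their deviations from the group means, over 2 pairs. With 2 WT libraries the WT deviations are mirror images, so these correlations can neither show nor exclude a pairing. The number is not taken as a pairing, because the sample labels give no more than the number. With the replicate block Ppp1r15a was at -1.23 and Eif2ak1 at -0.045.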
